A study of Mus musculus with 8 samples.

Results

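Autosomal antisense transcripts were examined in whole testes in which meiosis had been synchronized and the Spdya gene deleted in germ cells. Members were chosen by 3 criteria: the biotype antisense in the deposited gene table, a position on chromosomes 1 to 19, and a mean of at least 3 FPKM over all 8 libraries. FPKM counts the fragments on a gene for each kilobase of length, relative to the scaled size of the library. Of 54532 genes in the table, 2826 were antisense, 2780 of these lay on autosomes, 2321 were above 0 in at least 1 library, and 139 met the level of 3 FPKM. The level that chose the members is a mean over both groups, so it is a description here, and the comparison of the groups was not used by the choice. D130020L05Rik (3.00 FPKM) and Gm37850 (3.02 FPKM) lay just inside the threshold, and Gm12905 and Gm37768 (both 2.98 FPKM) lay just outside it.

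Both groups were Spdyafl/fl mice, whose spermatogonia were first held by an injected inhibitor of retinoic acid (RA) synthesis and then released together by RA. Both groups received tamoxifen at RA7.5 and RA8.5 according to the labels, and testes were taken at RA11.5, in mid-late pachynema. The 4 cKO mice also carried Ddx4-CreERT2, which deletes exon 2 of Spdya in germ cells and not in somatic cells, while the 4 control mice lacked the recombinase. Each library came from 1 mouse, and whole testis holds Sertoli, Leydig, peritubular and blood cells beside spermatocytes, all of which contribute to the values.

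Antisense genes are transcribed from the DNA strand opposite to another gene. Some start beside a coding gene's promoter and run away from it, some lie within its introns, and some run into its tail. Many such RNAs are short-lived because the nuclear exosome degrades them, and a few, such as Airn and Kcnq1ot1, silence neighbouring genes. Pachytene spermatocytes are known for transcribing a large share of the genome, long non-coding and antisense RNAs included.

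RefSeq promoter windows of GRCm38.p6, reaching from 250 bases before to 50 bases after the annotated start, were found by symbol for 60 of the 139 members. In 42 of them the start lay within 100 bases of the start in the deposited table. The windows below belong to the most abundant member (Gm14244), the member with the smallest p (1700026D11Rik), a member that starts inside its partner gene and just passed the threshold (D130020L05Rik), and a member whose ratio to its coding partner was much lower by value in cKO (2410021H03Rik). They are shown as the start regions of the transcripts whose values follow, on the strand of the antisense gene. Capitals mark letters found on the opposite strand of the window: TTTATA is the reverse of the TATA letters and CCGTTA the reverse of the Myb core, and the windows without capitals hold none of the 4 motifs searched.
Gm14244 chr2:127691604-127691903 plus strand: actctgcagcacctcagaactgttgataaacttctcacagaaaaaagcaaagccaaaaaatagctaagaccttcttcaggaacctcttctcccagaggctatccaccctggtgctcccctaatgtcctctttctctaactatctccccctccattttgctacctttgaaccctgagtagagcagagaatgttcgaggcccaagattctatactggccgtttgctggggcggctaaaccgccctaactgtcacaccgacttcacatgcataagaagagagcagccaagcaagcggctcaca
1700026D11Rik chr2:132490478-132490777 plus strand: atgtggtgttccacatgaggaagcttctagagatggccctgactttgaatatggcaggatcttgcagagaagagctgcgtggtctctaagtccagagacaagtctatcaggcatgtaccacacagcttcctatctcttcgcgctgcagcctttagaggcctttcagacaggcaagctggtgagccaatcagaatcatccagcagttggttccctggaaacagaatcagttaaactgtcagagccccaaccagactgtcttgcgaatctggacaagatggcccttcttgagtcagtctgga
D130020L05Rik chr12:101082201-101082500 plus strand: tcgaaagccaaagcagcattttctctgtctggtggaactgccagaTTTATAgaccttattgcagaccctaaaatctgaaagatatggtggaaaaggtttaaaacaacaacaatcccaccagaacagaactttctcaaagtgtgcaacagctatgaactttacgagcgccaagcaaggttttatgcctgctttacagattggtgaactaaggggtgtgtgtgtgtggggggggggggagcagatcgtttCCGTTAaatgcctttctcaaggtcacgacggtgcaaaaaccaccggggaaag
2410021H03Rik chr17:69277157-69277456 minus strand: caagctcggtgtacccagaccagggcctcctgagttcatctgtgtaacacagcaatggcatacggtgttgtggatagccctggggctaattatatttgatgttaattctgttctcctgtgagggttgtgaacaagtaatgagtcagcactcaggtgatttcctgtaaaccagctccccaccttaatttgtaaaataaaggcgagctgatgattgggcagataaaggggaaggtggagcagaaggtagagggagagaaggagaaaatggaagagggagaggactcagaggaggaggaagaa

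The 42 windows had a median of 16.5 CG pairs and a GC content of 61.3%, against 7 CG pairs and 52.7% over all 32851 promoter windows. The core letters of Myb factors, a family that includes the spermatocyte regulator encoded by Mybl1, are TAACGG, and 4 of the 42 windows (9.52%) held them on either strand, against 2.76% of all windows. Besides D130020L05Rik these were 1700113A16Rik, Gm7467 and Gm14966. The RFX motif GTTGCC, named for factors that act on cilia and flagella genes, was in 6 windows (14.3% against 12.5%). The ETS site CCGGAAGT was in 2 windows (4.76% against 3.89%), and the letters TATAAA in 2 windows (4.76% against 13.6%). No motif overlaps another in its letters, and a match describes letters and not a bound site. The Myb and ETS letters each hold a CG pair, and the 42 windows were compared with windows not matched in CG content.

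Most members were short and low in RNA level. Their median level was 5.08 FPKM, with a range of 3.00 to 65.8 FPKM. All 15513 genes tested had a median of 7.24 FPKM, although these had only to reach a mean of 1 FPKM and the members 3 FPKM. Only 18 members lay above 10 FPKM and 68 lay below 5 FPKM. The median length was 802 bases (151 to 10812), against 3480 bases for all genes tested, and 12 members had a single exon. The fragments behind a value ranged from 2 to 3703, and 25 members had fewer than 20 fragments in at least 1 library, so their values carry more counting error than those of the long or abundant members. The members lay on 18 chromosomes, with 16 of them on chromosome 11.

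A few members held much of the signal, and the top 3 made up 15.6% of the summed FPKM. Gm14244 (ENSMUSG00000087162, chromosome 2 of GRCm38, 127691899 to 127700488), which overlaps no opposite-strand coding gene, had 49.2, 77.6, 98.3 and 89.1 FPKM in the control libraries and 60.9, 54.2, 50.6 and 46.6 FPKM in the cKO libraries. The groups overlapped, as control replicate 1 lay among the cKO libraries. Between the groups Gm14244 differed by -0.52 ± 0.21 on the log2 scale (SE, limma adjusted p = 0.444). Gm11837 (chromosome 4, 14929908 to 14953030), tail to tail with the neuronal calcium-binding gene Necab1, had 40.3, 55.9, 62.4 and 43.7 FPKM in controls and 58.4, 44.4, 48.0 and 39.2 FPKM in cKO. Its groups overlapped over most of their range, and the log2 fold change was -0.08 (limma adjusted p = 0.903), with the opposite sign without control replicate 3 or cKO replicate 4.

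1700006J14Rik (chromosome 10, 120364157 to 120384336) lies inside Hmga2, which encodes an architectural chromatin protein of embryonic and dividing cells. It had 20.52, 41.6, 55.4 and 42.3 FPKM in controls and 37.4, 32.7, 32.2 and 25.3 FPKM in cKO (log2 fold change -0.25, limma adjusted p = 0.806). Control replicate 1 was the lowest of all 8 libraries and control replicate 3 the highest, so the spread among controls exceeded the difference between groups. Hmga2 itself stayed at 0.582 FPKM in controls and 0.476 FPKM in cKO. The other members among the 6 most abundant were Gm17201 inside Ankrd52, a regulatory subunit gene of protein phosphatase 6, Gm43140 inside the axonemal gene Ccdc39, and Gm21284 head to head with the deubiquitinase gene Stambp. Gm17201 had 17.6 ± 2.78 FPKM in controls and 21.9 ± 4.57 FPKM in cKO (SD, n = 4 each). Gm43140 had 20.7 ± 2.06 and 18.04 ± 4.00 FPKM, and Gm21284 had 20.05 ± 2.21 and 17.4 ± 2.59 FPKM (SD, n = 4 each). All 3 overlapped between groups, with limma adjusted p from 0.610 to 0.70.

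Of the 139 members, 118 overlapped at least 1 opposite-strand coding gene, called the partner here, and 10 overlapped several, for which the longest overlap was taken. The partners were 116 distinct genes, with a median of 14.2 FPKM. The antisense gene lay inside the partner in 57 pairs, ran tail to tail with it in 30, head to head in 29, and spanned it in 2. The partner was the more abundant in most pairs, at a median of 2.98 times the antisense level, but 29 members were above their partner and 9 were below a 0.1 share of it. Levels of the members and their partners had little relation across the 113 pairs whose partner had a mean of at least 1 FPKM. Pearson's r of log2 levels was 0.022 and Spearman's coefficient 0.135, a description over genes that share the same libraries. Pairs with weaker partners, such as Hmga2, were left out of both coefficients. The members were themselves chosen at 3 FPKM or more, which narrows their range and can weaken a relation. The coefficients therefore do not describe antisense genes at large. The plot of both levels shows pairs of the inside, tail to tail and head to head arrangements on both sides of the line of equal levels, while both spanning pairs lie above it.

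**Figure D1:**
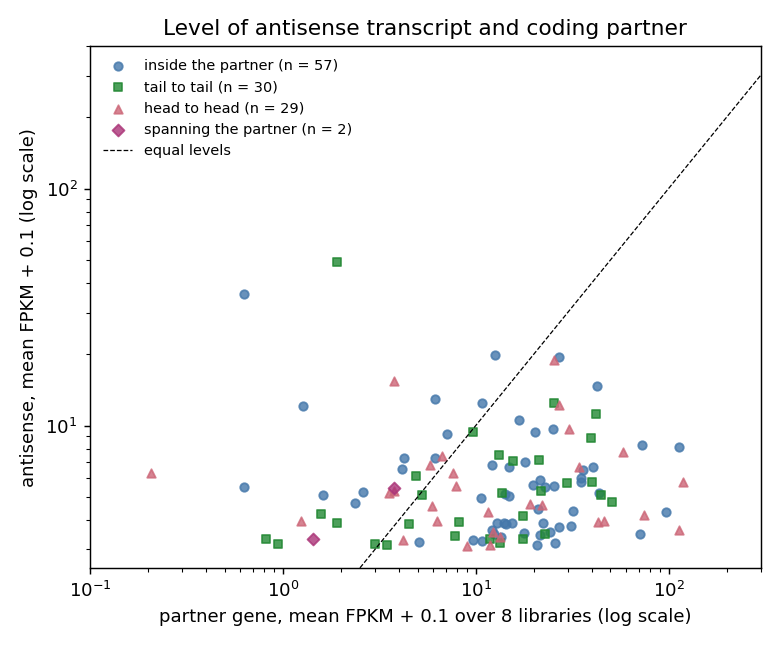
Mean FPKM + 0.1 over 8 libraries of each antisense transcript (vertical axis) against that of its overlapping coding partner (horizontal axis), both on log scales, with 1 point per pair and the shape and colour giving the arrangement of the genes. The dashed line marks equal levels, and 29 members lie above it.

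The extremes of this ratio were set by the partners. Hmga2 and Gldn, which encodes gliomedin of the nodes of Ranvier, were nearly silent in these testes, and 1700006J14Rik and Gldnos stood 67.9 and 58.3 times above them. Gldnos (chromosome 9, 54268578 to 54301570) had 4.08, 8.001, 9.51 and 9.80 FPKM in controls and 5.03, 5.06, 4.02 and 4.20 FPKM in cKO. Control replicate 1 again lay among the cKO libraries, and the log2 difference was -0.69 ± 0.26 (SE, limma adjusted p = 0.419). At the other end, A330041J22Rik was 32.2 times below Me1, which encodes cytosolic malic enzyme, and Gm45709 was 23.1 times below Sprtn, a protease gene for DNA-protein crosslinks. Their limma adjusted p were 0.955 and 0.698.

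Another 21 members overlapped no opposite-strand coding gene. Of these, 13 lay within 1000 bases of one, and 12 pointed away from it. The gaps were short: Med9os began 64 bases from the Mediator subunit gene Med9, Gm13375 173 bases from Arhgap21, Gm12279 130 bases from the polyubiquitin gene Ubb, and Gm4285 129 bases from Tpt1. Together with 13 head to head pairs whose starts lay within 1000 bases of each other, 25 members began beside a coding start. Among the head to head pairs is Tug1, named after its values were seen, a long nuclear RNA that starts 179 bases from the chromatin compaction gene Morc2a and had 10.3 to 12.8 FPKM in controls and 12.4 to 12.6 FPKM in cKO (limma adjusted p = 0.811). The median log2 fold change of the 25 was -0.12 and that of the other 114 members was -0.10. At an unadjusted p below 0.05, 1 of the 25 was higher (4%) and 3 were lower (12%). Of the other 114, 2 were higher (1.75%) and 15 lower (13.2%), against 4.96% and 5.32% of all genes.

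Bases shared with an opposite-strand coding exon added nothing to an antisense value. Among antisense genes of the table whose partner exceeded 5 FPKM, all 36 whose exonic bases lay wholly within opposite coding exons were listed at 0 in every library, although their partners had 5.05 to 117 FPKM. At 75 to under 100% overlap 12 of 37 were at 0, and at 50 to 75% 3 of 66 were. Fragments on shared bases were therefore not given to the antisense gene, and a 0 there says nothing about its transcription. FPKM divides by the full length, so it understates members with such overlap. The exonic overlap had a median of 3.52% over the members and reached 72.4%, with 54 members at 0% and 8 at 50% or more. For Gm17201, where it was 59.5%, the mean of 19.8 FPKM became 48.8 FPKM over the unshared bases alone. If counting ignored strand, fragments from the introns or read-through of a partner would be counted as antisense where the bases are not shared, and the 2 sources cannot be told apart in any of these values or ratios. Since the shared length is fixed, the division by full length cancels in a ratio of FPKM between groups. Partner fragments counted as antisense need not cancel, and their part in the fold changes was not tested.

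**Figure D2:**
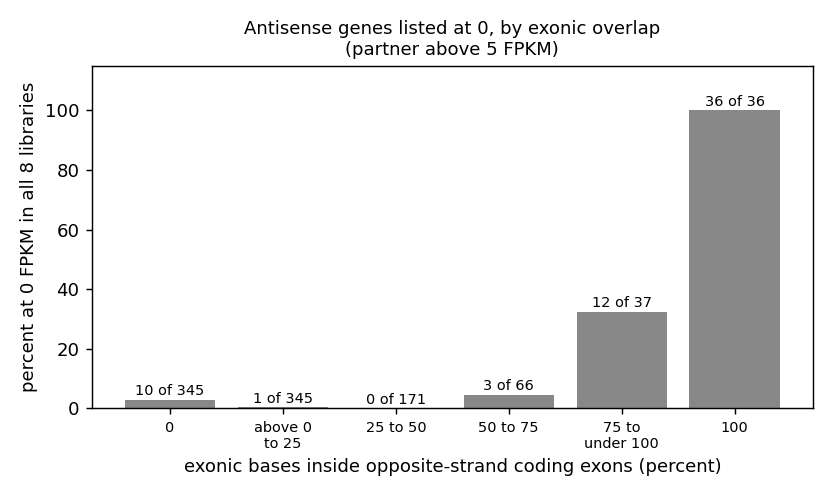
Percent of antisense genes listed at 0 FPKM in all 8 libraries (bars) by the share of their exonic bases inside opposite-strand coding exons, for genes whose partner exceeded 5 FPKM. The counts stand above the bars, and the last bar holds 36 of 36 genes.

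No antisense transcript differed between the groups at a limma adjusted p below 0.05, and the shift that was present was small and toward lower levels in cKO. The fit covered all genes with a mean of at least 1 FPKM, and the lowest adjusted p of a member was 0.178. Over all 15513 genes tested 4 passed (0.0258%), and with the additional limit of an absolute log2 fold change above 1 the share was again 0.0258% and the count of members 0. No member reached that fold change, and their values ran from -0.98 to 0.94. At an unadjusted p below 0.05 there were 21 members, or 15.1%, against 10.3% of all genes tested. Of these 18 were lower in cKO (12.9%, against 5.32% of all genes) and 3 were higher (2.16%, against 4.96%). The log2 fold change was below 0 in 96 members (69.1%, against 49.7%), with a median of -0.11 against 0.00 over all genes.

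The counts depended on the scale. Rescaling each library to a common sum (TPM) gave 7 members higher (5.04%, against 6.16% of all genes) and 6 lower (4.32%, against 3.39%), moved the median of all genes to 0.08 and that of the members to -0.03, and changed the counts over all genes from 769 higher and 825 lower to 956 and 526. The counts also moved with single libraries, and those of all genes moved with them. Lower members numbered 7 (5.04%, against 3.5003% of all genes) without control replicate 3, 8 (5.76%, against 3.24%) without cKO replicate 4 and 10 (7.19%, against 3.38%) without cKO replicate 3. Higher members numbered 7 (5.04%, against 7.83%) without control replicate 1 and 8 (5.76%, against 6.43%) without control replicate 4. Because the threshold used the mean of both groups, 15 members were below 3 FPKM in cKO only and 2 in controls only. Among the 122 members at 3 FPKM or more in both groups, 13 were lower (10.7%, against 5.32% of all genes). In the same 122, 2 were higher (1.64%, against 4.96%). The lower share of 12.9% over all 139 members thus includes members that were below 3 FPKM in 1 group. Voom on the recovered fragments gave 12 lower (8.63%, against 5.23% of all genes), 4 higher (2.88%, against 5.25%) and 0 at an adjusted p below 0.05.

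**Figure D3:**
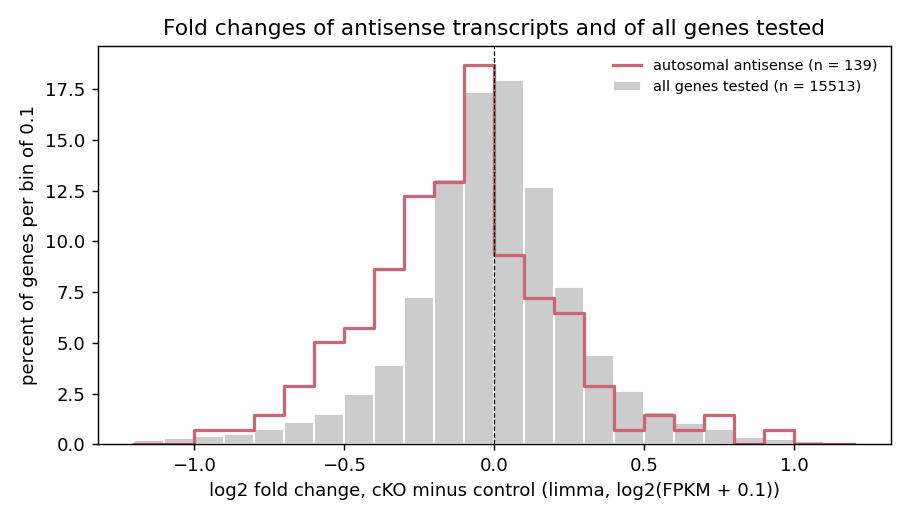
Percent of genes (vertical axis) per bin of 0.1 of the log2 fold change, cKO minus control (horizontal axis, limma on log2(FPKM + 0.1)), for all 15513 genes tested (bars) and the 139 antisense transcripts (line). The line lies left of the bars, with 69.1% of members below 0 against 49.7% of genes; 240 genes, or 1.55%, fall outside the axis range.

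The summed level of the members was 986, 1001, 1104 and 1014 FPKM in the control libraries and 981, 928, 876 and 860 FPKM in the cKO libraries. On the FPKM scale all cKO sums lay below all control sums, the smallest gap being that between control replicate 1 and cKO replicate 1. As a share of each library's fragments the groups overlapped, at 0.136 to 0.169% in controls and 0.134 to 0.149% in cKO, with control replicate 1 the lowest control. Summed levels of cell type markers were also compared between the groups, without a test of the sums. At an unadjusted p below 0.05, 4.96% of all genes were higher and 5.32% lower. The summed level of 13 spermatocyte markers was 1429 to 2078 FPKM in controls and 1150 to 1769 FPKM in cKO, so the groups overlapped. Of the 13, 3 were lower and 0 higher at an unadjusted p below 0.05. The 8 Sertoli cell markers summed to 990 to 1337 and 1322 to 1565 FPKM, with 0 of 8 at such a p. The 5 macrophage markers summed to 12.3 to 19.9 and 21.02 to 25.04 FPKM, with 3 of 5 higher. The sums of 4 endothelial markers (4.88 to 10.9 and 10.2 to 13.1 FPKM) were also higher by value in cKO. So were those of 4 peritubular markers (43.7 to 73.9 and 72.6 to 102 FPKM). The 5 erythroid markers (10.8 to 39.8 and 22.04 to 46.7 FPKM) were higher by value as well. In each of these lists 1 of the 3 genes tested was higher at an unadjusted p below 0.05. The 9 spermatogonial markers summed to 174 to 236 and 221 to 236 FPKM, with 1 higher and 1 lower at such a p. Of 6 Leydig cell markers (34.9 to 53.0 and 48.2 to 66.4 FPKM), 3 of the 4 tested were higher, while Cyp17a1 and Insl3 were below 1 FPKM. The 7 spermatid markers summed to 4.81 to 12.3 and 5.98 to 7.99 FPKM, with Acrv1, Tnp1, Tnp2, Prm1 and Prm2 below 1 FPKM. No marker of the 9 lists was at 0 in every library. The part of these cell types in the antisense values was not tested, and in whole testis fewer cells of a type and less RNA per cell cannot be told apart. Control replicate 1 stood apart in its mitochondrial share, 0.464% of fragments against 2.20 to 3.74% in the other libraries. Library totals were 13978342 to 19583091 fragments.

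In 9 members the groups did not overlap, 6 lower (4.32%, against 2.91% of all genes) and 3 higher (2.16%, against 3.31%) in cKO. The member with the smallest p was 1700026D11Rik (ENSMUSG00000086379, chromosome 2, 132490634 to 132524057), whose start region is printed above. It had 9.85, 9.001, 12.4 and 8.69 FPKM in controls and 6.603, 6.09, 5.49 and 4.36 FPKM in cKO, and every cKO library lay below every control library. The change was -0.81 ± 0.16 log2 units (SE, limma adjusted p = 0.178), and it ran from -0.90 to -0.70 when single libraries were left out. It overlaps no coding gene, but 10515 bases of its span lie opposite the lincRNA Gm14095. That lincRNA had 3.92 ± 0.288 FPKM in controls and 1.40 ± 0.255 FPKM in cKO (SD, n = 4 each), which is a log2 difference of -1.44 ± 0.17 (SE, limma adjusted p = 0.0431). It is 1 of the 4 genes that passed over the whole table. Its adjusted p stayed below 0.05 in 3 of 18 alternatives and ranged from 0.0311 with array weights to 0.241 without control replicate 3, with 0.221 under the replicate block. When single libraries were left out, 0 to 3 genes of the whole table passed. The nearest opposite-strand coding gene of 1700026D11Rik, Gpcpd1, lies 5025 bases away and had a log2 fold change of 0.05.

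Med9os (chromosome 11, 59946889 to 59948142) was the most abundant of the members without overlap between groups. Its values were 18.5, 16.6, 18.3 and 18.4 FPKM in controls and 15.0, 14.3, 12.8 and 12.1 FPKM in cKO. Every cKO library was below the lowest control, which was control replicate 2. cKO minus control came to -0.41 ± 0.10 on the log2 scale (SE, limma adjusted p = 0.220). Med9, transcribed away from it, had 30.7 ± 7.22 FPKM in controls and 36.6 ± 2.88 FPKM in cKO (SD, n = 4 each; limma adjusted p = 0.625).

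Gm21844 (chromosome 19, 4801512 to 4805784) lies inside Rbm14, which encodes an RNA-binding coactivator, and had 4.83, 3.91, 6.08 and 4.23 FPKM in controls and 3.03, 2.46, 2.06 and 3.64 FPKM in cKO. The highest cKO library was just below the lowest control. Gm21844 had a log2 difference of -0.76 ± 0.20 (SE, limma adjusted p = 0.280), on 23 to 63 fragments per library and with 52.6% of its exonic bases inside coding exons. Gm47827 (chromosome 13, 112669139 to 112685696) lies inside Slc38a9, the gene of a lysosomal amino acid transporter, and had 7.93, 6.93, 7.73 and 11.5 FPKM in controls and 5.86, 6.35, 5.59 and 5.55 FPKM in cKO. The cKO libraries were close together and the controls were spread by replicate 4. Between the groups Gm47827 differed by -0.51 ± 0.15 on the log2 scale (SE, limma adjusted p = 0.340).

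D130020L05Rik (chromosome 12, 101082451 to 101088927) runs head to head into Ppp4r3a, a regulatory subunit gene of protein phosphatase 4, and starts 1251 bases inside it. It had 4.29, 3.96, 3.60 and 2.84 FPKM in controls and 2.46, 2.46, 2.81 and 1.60 FPKM in cKO. The groups were separated only by the small gap between control replicate 4 and cKO replicate 3. The change was -0.64 ± 0.20 log2 units (SE, limma adjusted p = 0.342), while Ppp4r3a had 9.17 and 8.61 FPKM (log2 fold change -0.08). 4930488L21Rik (chromosome 8, 93750147 to 93813722), head to head with the G protein gene Gnao1, had 2.73, 3.97, 4.24 and 4.08 FPKM in controls and 2.75, 2.57, 1.97 and 1.92 FPKM in cKO. Control replicate 1 was just below the highest cKO library, so its groups overlapped. cKO minus control came to -0.68 ± 0.19 on the log2 scale (SE, limma adjusted p = 0.288). The sixth member that was lower without overlap was Gm13267, named after its values were seen, with 7.01 ± 0.748 and 5.06 ± 1.23 FPKM (SD, n = 4 each; limma adjusted p = 0.394).

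Higher levels in cKO were seen in 3 members without overlap between groups. Gm47547 (chromosome 14, 41053653 to 41061614) lies inside Dydc2 and had 3.49, 3.64, 2.36 and 3.91 FPKM in controls and 6.41, 4.96, 5.46 and 9.68 FPKM in cKO. All cKO libraries were above all controls, with cKO replicate 4 far above the rest. Its log2 difference, the highest of the members, was 0.94 ± 0.23 (SE, limma adjusted p = 0.238). Dydc2 remained at 1.45 and 1.58 FPKM. Gm13375 (chromosome 2, 20969054 to 20969997), beside the start of Arhgap21, had 2.77, 2.26, 2.17 and 3.07 FPKM in controls and 3.503, 4.84, 3.47 and 4.21 FPKM in cKO. The gap between groups was narrow and the values rest on 29 to 66 fragments. Gm13375 had a log2 difference of 0.62 ± 0.16 (SE, limma adjusted p = 0.273).

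Gm45670 (chromosome 7, 133747624 to 133753038) lies inside Dhx32, a gene of the DEAH-box helicase family. It had 5.04, 4.11, 4.14 and 4.55 FPKM in controls and 5.66, 5.37, 7.76 and 8.61 FPKM in cKO. Its cKO libraries fell into a lower and a higher pair, both above the controls. Between the groups Gm45670 differed by 0.58 ± 0.17 on the log2 scale (SE, limma adjusted p = 0.309). Sp3os, AC127341.3 and Gt(ROSA)26Sor had the next smallest p among higher members, with log2 fold changes of 0.23, 0.36 and 0.21 and limma adjusted p of 0.505, 0.505 and 0.562. Sp3os also overlaps the transcription factor gene Sp3, at 15.4 and 15.3 FPKM.

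**Figure D4:**
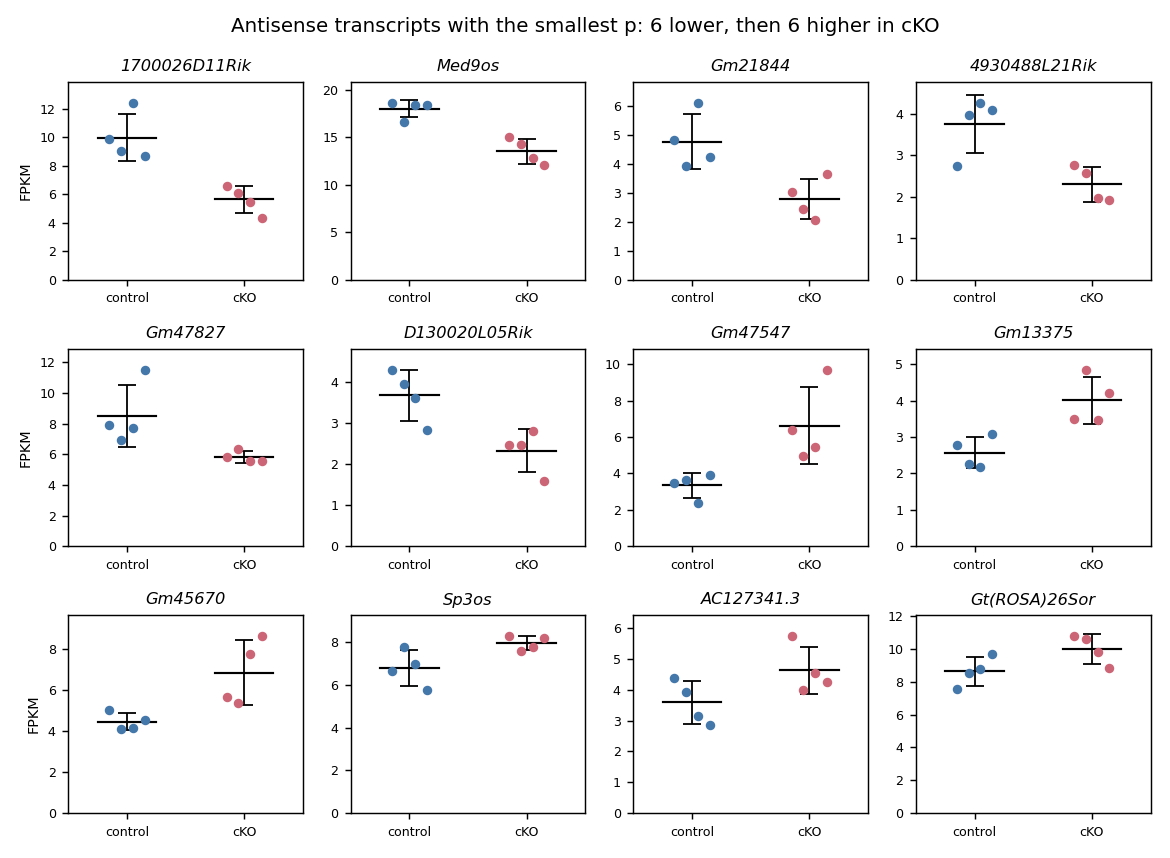
FPKM (vertical axes, from 0) of the 6 members with the smallest p among those lower in cKO and then the 6 among those higher, with 1 point per library and the mean ± SD of 4 libraries. In 1700026D11Rik the controls sit between 8.69 and 12.4 FPKM, above the cKO libraries at 4.36 to 6.603 FPKM.

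By arrangement, 6 of the 29 head to head members were lower in cKO at an unadjusted p below 0.05, as were 5 of 57 inside a partner, 3 of 30 tail to tail and 4 of 21 without a partner (20.7%, 8.77%, 10% and 19.05%, against 5.32% of all genes). The median log2 fold changes were -0.12, -0.13, -0.06 and -0.16 in that order. The higher members were 2 inside a partner (3.51%) and 1 without one (4.76%), against 4.96% of all genes. These counts are too small to rank the arrangements, and no test of the difference between them was made.

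Of the members' partners 112 could be tested. At an unadjusted p below 0.05 there were 3 higher (2.68%, against 4.96% of all genes) and 9 lower (8.04%, against 5.32%), with a median log2 fold change of -0.02 and 0 at a limma adjusted p below 0.05. The lowest adjusted p of a partner was 0.123. Among the 15 members at an unadjusted p below 0.05 whose partner was tested, 1 partner also had one: Gm15543, named after its values were seen, and its partner Casc1 were both lower. In 49 pairs both fold changes were below 0, in 25 both were above 0, and in 39 they had opposite signs, 24 of these with the antisense transcript lower.

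The ratio of each antisense transcript to its partner was tested in its own fit over all 372 pairs in which both genes had a mean of at least 1 FPKM, 113 of them members. No pair had a limma adjusted p below 0.05, and the lowest of a member was 0.643. At an unadjusted p below 0.05 there were 7 of the 113 members (2 higher, 5 lower), against 25 of all 372 pairs (6.72%). The members were thus near the share of all pairs. The median change of the log2 ratio was -0.06 in the members and -0.07 over all pairs. The unadjusted count was 13 without control replicate 1 and 3 without cKO replicate 1 or cKO replicate 3. The share of all pairs is not given for these settings, so these counts cannot be set against it.

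The pairs with the smallest p are described here by value, as the head of a ranking in which none passed adjustment. 2410021H03Rik (chromosome 17, 69275362 to 69277208) lies inside Epb41l3, a membrane skeleton gene, and had 2.40, 4.62, 4.94 and 4.23 FPKM in controls and 1.15, 3.85, 2.56 and 2.47 FPKM in cKO. The groups overlapped, with replicate 1 the lowest library of each. Epb41l3 had 12.6 FPKM in controls and 14.3 FPKM in cKO, and the log2 ratio changed by -0.91 (SE 0.31, limma adjusted p = 0.643). 4933427E11Rik, a single-exon transcript whose start lies 374 bases from that of the DNA-binding protein gene Jrk, had 3.77, 3.86, 4.95 and 2.66 FPKM in controls and 3.23, 2.68, 2.44 and 1.94 FPKM in cKO. Jrk was nearly equal, at 3.98 and 4.17 FPKM, and the log2 ratio went from -0.08 to -0.70 (limma adjusted p = 0.643). Its ratios did not overlap, at -0.27 to 0.12 in controls and -0.94 to -0.48 in cKO.

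Gm17112, head to head with the G protein beta subunit gene Gnb2, had a log2 ratio of -2.61 in controls and -3.22 in cKO, with Gnb2 at 53.4 and 62.2 FPKM. For 4930488L21Rik the ratio to Gnao1 changed by -0.64, and Gnao1 itself by -0.03. In the other direction, Gt(ROSA)26Sor, the locus used to carry transgenes in mice, had 7.56, 8.53, 8.76 and 9.72 FPKM in controls and 10.8, 10.6, 9.83 and 8.83 FPKM in cKO. Its tail to tail partner Thumpd3, a tRNA methyltransferase gene, had 10.7 and 8.40 FPKM (log2 fold change -0.34, limma adjusted p = 0.309). The log2 ratio was -0.66 to 0.01 in controls and 0.15 to 0.29 in cKO, without overlap, and changed by 0.55 (SE 0.21, limma adjusted p = 0.643). For Gm45670 and Dhx32 the change was 0.53, also at a limma adjusted p of 0.643.

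In both remaining pairs of this set the coding gene was lower by value in cKO. 7330404K18Rik lies inside Cfap70, a gene of cilia and flagella, which had 16.0, 16.0, 19.6 and 15.4 FPKM in controls and 10.8, 8.80, 7.62 and 8.13 FPKM in cKO. All cKO libraries of Cfap70 were below all controls (log2 fold change -0.92, limma adjusted p = 0.123), the lowest p of any partner. 7330404K18Rik was itself lower by value, with a log2 fold change of -0.36 (limma adjusted p = 0.733), and its ratio changed by 0.56. Gm16124, head to head with the cullin gene Cul5, had a change of its ratio of 0.43 (limma adjusted p = 0.735). Cul5 had 12.1 and 10.9 FPKM (log2 fold change -0.14), and Gm16124 itself was higher by value, with a log2 fold change of 0.29.

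**Figure D5:**
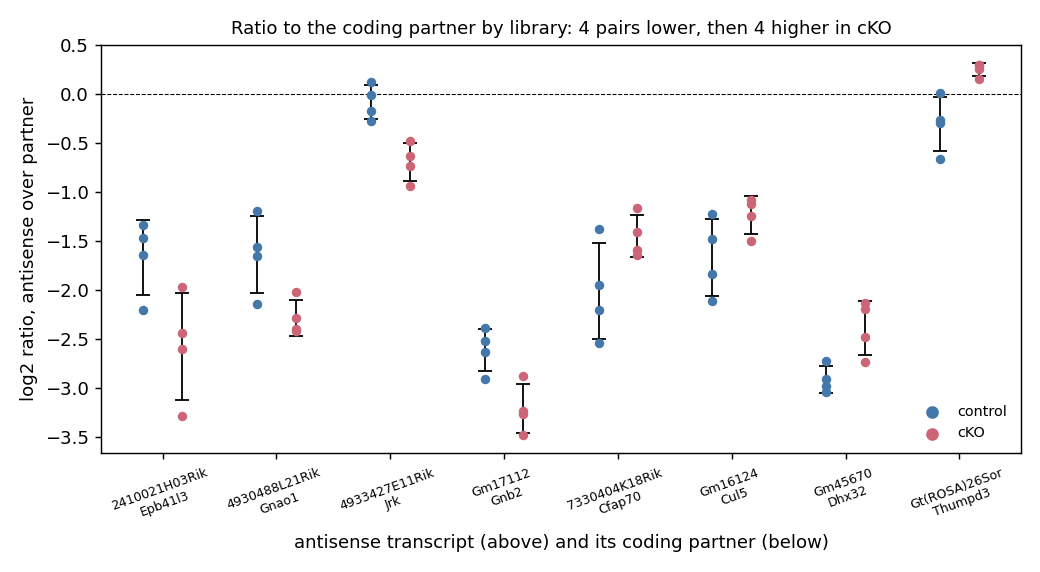
Log2 ratio of antisense to partner FPKM (vertical axis) in each library for the 4 pairs with the smallest p among those lower in cKO and then the 4 among those higher, with bars for the mean ± SD of 4 libraries. The ratio of Gt(ROSA)26Sor to Thumpd3 sits at -0.66 to 0.01 in controls and 0.15 to 0.29 in cKO.

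AC127341.3 and Hmga1, which encodes an architectural chromatin protein, start 21 bases apart on opposite strands. AC127341.3 (chromosome 17, 27545707 to 27556518), a single-exon transcript, had 4.397, 3.94, 3.15 and 2.87 FPKM in controls and 5.73, 3.99, 4.54 and 4.24 FPKM in cKO. Hmga1 had 46.2, 79.7, 65.9 and 56.7 FPKM in controls and 95.6, 84.4, 90.1 and 79.3 FPKM in cKO, overlapping by the small margin between control replicate 2 and cKO replicate 4. Both log2 fold changes were above 0, at 0.36 and 0.52 (limma adjusted p = 0.505 and 0.346), and the ratio changed by -0.15.

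One member overlaps the deleted gene. Trmt61b, named after its values were seen, carries the symbol of a mitochondrial tRNA methyltransferase but is listed as antisense, and runs tail to tail with Spdya over 32507 bases of chromosome 17 (Trmt61b 71557027 to 71598755, Spdya 71552061 to 71589533). Its span ends 537 bases from exon 2 of Spdya (71556240 to 71556489), the exon removed in cKO. Trmt61b had 4.24, 2.86, 3.95 and 4.42 FPKM in controls and 2.58, 3.26, 3.19 and 2.48 FPKM in cKO. Only control replicate 2 lay among the cKO libraries, and the log2 difference was -0.40 ± 0.17 (SE, limma adjusted p = 0.463). Spdya had 20.8, 21.003, 23.8 and 19.7 FPKM in controls and 30.5, 22.2, 26.1 and 17.7 FPKM in cKO over its whole length (log2 fold change 0.15, limma adjusted p = 0.798), so its level gave no check of the labels.

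Characterised antisense RNAs were mostly low in these testes. Of 9 in the list, 8 were in the table and 3 could be tested, and none of the 3 had an unadjusted p below 0.05. Airn and Kcnq1ot1 had means of 0.236 and 0.522 FPKM, and Nespas had 1.97 FPKM. Zfas1, listed as a processed transcript, had 5.73 ± 1.16 FPKM in controls and 6.89 ± 0.708 FPKM in cKO (SD, n = 4 each). Wt1os (chromosome 2, 105076538 to 105126510), the single member among them, had 1.99, 3.73, 2.92 and 3.56 FPKM in controls and 2.84, 4.01, 3.40 and 3.28 FPKM in cKO. Its groups overlapped over most of their range, with a log2 fold change of 0.17 (limma adjusted p = 0.823) that turned to -0.012 without control replicate 1.

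No gene of the machinery that removes or reads antisense RNA differed between the groups in the same fit. In the list of the nuclear exosome, which degrades short-lived nuclear RNA, and its adaptors, 0 of 18 genes had an unadjusted p below 0.05 in either direction, and the median log2 fold change was 0.01. The count was 0 of 13 for early termination and cap binding, with a median of 0.09, and 0 of 18 for editing and sensing of double-stranded RNA, with a median of 0.02. Over all genes tested 10.3% had such a p. The fold changes of the 3 lists ran from -0.38 to 0.25, and the lowest adjusted p was 0.542.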

How the data were processed

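RNA of whole testes from 4 control and 4 cKO mice, grouped as labelled, was analysed. The authors deposited FPKM values for 54532 genes, made by the sequencing company's software from paired-end reads. Per-sample files held the same values and were not used further. The aligner, the counting tool and the use of strand are not given in the sources used here. The submitters' processing notes name GRCm38. Of the members 139 were in GENCODE vM21, 138 with the same start and end. FPKM times length gave whole fragments in 100% of values (tolerance 0.02), 13978342 to 19583091 per library, so the depth is known and intervals on low members are wide.

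The values were tested as log2(FPKM + 0.1), which understates the change of low genes, with limma 3.58.1 in R 4.3.3 (lmFit, eBayes with trend) over the 15513 genes at a mean of 1 FPKM or more, with Benjamini-Hochberg adjustment over all of them. P-values measure the spread between mice. Log2 ratios to the partner, the coding gene of longest opposite-strand overlap, were fitted alike over 372 pairs. The count-based test of the study was not run on the deposited FPKM; voom on the recovered fragments was an alternative. The fits were tested on simulated fragments.

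The members, the gene lists and the cell type markers were chosen with earlier results of these data known. Genes named are the 6 highest by mean, the 6 with the smallest p in each direction, the 4 pairs with the smallest p in each direction, the 2 nearest the threshold on each side, the 2 highest and 2 lowest in ratio to the partner, and the characterised antisense RNAs; partners are named with them, and others are said to be named after their values were seen. Replicates were compared, and even the closest pair had a chi-square of 4.32 per gene, so no library was counted as a duplicate. Other pseudocounts, filters, scalings, weights, a replicate block, membership levels and libraries left out were tried. Figures were drawn with matplotlib 3.10.9.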

Additional observations from a re-analysis of the deposited data

Results flagged for a closer look

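In groups of 4 libraries, 110 sets of values were examined for a library far from the other 3, and 7 had one (a gap, relative to the range, above Dixon's critical value), where chance gives 5.5. Control replicate 1 had 0.4645% of its fragments on mitochondrial genes, against 2.97 to 3.39% in the other controls. Med9os had 16.64 FPKM in control replicate 2, against 18.3 to 18.5 FPKM in the others. Gm16124 had 3.881 FPKM in cKO replicate 4, against 4.73 to 4.90 FPKM. Gm45709 had 7.524 FPKM in control replicate 1, against 3.75 to 4.11 FPKM. Among partners, Hmga2 had 0.6566 FPKM in cKO replicate 2 (others 0.403 to 0.434 FPKM), Cfap70 had 19.59 FPKM in control replicate 3 (others 15.4 to 16.0 FPKM) and Me1 had 140.4 FPKM in control replicate 1 (others 99.6 to 106 FPKM). Control replicate 1 accounts for 3 of the 7.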

How the results depend on the processing

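The count of members at a limma adjusted p below 0.05 was 0 in every setting run, as was the count of pairs, and of 532 alternative log2 fold changes of the 28 named members 526 kept their direction. The unadjusted counts moved more. With 3 members higher, 18 lower and 21 in all as the starting values, rescaling to TPM gave 7, 6 and 13, array weights gave 8, 28 and 36, median centring gave 5 higher, and the replicate block gave 5 higher, 20 lower and 0 adjusted. With array weights all genes rose as well, to 8.61% higher and 9.51% lower (members 5.76% and 20.1%). With median centring 5.24% of all genes were higher (members 3.60%). Under the replicate block 6.22% of all genes were higher and 6.67% lower (members 3.60% and 14.4%). Membership at 1 FPKM gave 12, 41 and 53 of 454 members, and at 5 FPKM 1, 11 and 12 of 71. The lower share was 9.03% at 1 FPKM, 12.9% at 3 FPKM and 15.5% at 5 FPKM, against 5.32% of all genes. The higher share was 2.64%, 2.16% and 1.41% in that order, against 4.96%. Leaving out single libraries gave 3 to 8 higher, 7 to 24 lower and 11 to 31 in all, with 11, 12 and 13 in all without control replicate 3, cKO replicate 4 and cKO replicate 3. The shares were 2.16 to 5.76% higher and 5.04 to 17.3% lower. Over all genes they were 2.57 to 7.83% higher and 3.24 to 7.43% lower in the same settings. Members without overlap between groups numbered 9 to 24, against 9 (24, 16 and 15 without control replicates 1, 2 and 4, and 18 without cKO replicate 1), and fewer libraries overlap less often by construction. The share of all genes without overlap is not given for the settings with a library left out, so these counts cannot be set against it. Member pairs at an unadjusted p below 0.05 numbered 7, with 4 without a filter, 12 with array weights and 3 to 13 with single libraries left out. For these alternatives the share of all pairs is not given either. The lowest array weight was 0.182, of control replicate 1, and the highest 3.65, of cKO replicate 3. Genes of the whole table at an adjusted p below 0.05, 4 as reported, numbered 67 with array weights, 1 with median centring or TPM, and 0 with a pseudocount of 0.01, eBayes without trend or the replicate block. The other causes were not tested.

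Directions turned in 4 named members: Gm11837 to 0.025 without control replicate 3 and 0.0038 without cKO replicate 4 (-0.19 to 0.025 over single libraries left out), Gm37850 to 0.066 with array weights, A330041J22Rik to -0.11 without control replicate 3 and -0.067 without cKO replicate 2 (-0.11 to 0.15), and Wt1os to -0.012 without control replicate 1 (-0.012 to 0.28). Replicate numbers were not used as pairs, since deviations of same-numbered libraries correlated at 0.165, -0.00857, -0.00980 and 0.170, and a library correlated best with its own number in replicates 1 and 4 only. Depth limits the 25 members with fewer than 20 fragments in a library.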

Other observations

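Antisense genes outside the members were lower in level. The 315 autosomal antisense genes at 1 to under 3 FPKM had a median log2 fold change of -0.05, with 9 higher (2.86%, against 4.96% of all genes) and 23 lower (7.30%, against 5.32%) in cKO at an unadjusted p below 0.05 and 0 at a limma adjusted p below 0.05. On the sex chromosomes 6 antisense genes reached 1 FPKM and 0 reached 3 FPKM, all 6 on the X chromosome. Gm15247 had the smallest p of these, with a log2 fold change of 0.95 (limma adjusted p = 0.501).

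The member with the most negative log2 fold change was Gm11192, which lies inside 2610507B11Rik and was named after its values were seen. It is 151 bases long in the table and rests on 2 to 17 fragments per library. It had 8.59, 2.19, 5.08 and 2.43 FPKM in controls and 2.39, 3.73, 0.785 and 1.95 FPKM in cKO, with a log2 difference of -0.98 ± 0.53 (SE, limma adjusted p = 0.579).

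Gm45442, head to head with Ccdc114, a gene of the outer dynein arm docking complex of motile cilia, was also named after its values were seen. It had 5.57 FPKM in control replicate 1 and 15.1 to 19.9 FPKM in the other controls, against 14.3 to 19.05 FPKM in cKO, with a log2 fold change of 0.36 (limma adjusted p = 0.775).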
